A study of Homo sapiens with 10 samples.

Results

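COLO320DM is a human colon cancer cell line known for many extra copies of the growth gene MYC and for features of neuroendocrine cells. Its m6A peaks were set against those of 4 other colon cancer lines. The list held 8304 peaks on chromosomes 1 to 22, of 35860 in the 5 lists together. Each was classed by how many of the HCT116, HT29, HCT15 and COLO205 lists had a peak overlapping it by at least 1 nt. A peak with no such overlap is called private. All lines were grown untreated in the same serum-supplemented medium, and each gave 1 m6A immunoprecipitation (IP) library and 1 input library, so 10 samples in all. COLO320DM and COLO205 are labelled colon, and HCT116, HT29 and HCT15 colorectum. There were no replicates, so every difference is one between libraries, no test was possible and no p-value was computed. Intervals are 95% intervals that cover counting error only.

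N6-methyladenosine (m6A) is a methyl mark placed on adenosines of messenger and long non-coding RNA, mostly by a complex of METTL3, METTL14 and WTAP with ZC3H13, VIRMA and RBM15. Reader proteins such as the YTHDF family bind it and influence the decay and translation of the RNA, while FTO and ALKBH5 can remove it. In MeRIP-seq an antibody pulls down short RNA fragments that carry the mark, and a peak is a place where these exceed the local background. A peak list therefore needs both a mark and enough RNA of that gene. It gives no value where no peak was called, so the IP level at a private COLO320DM position in the other lines is not known.

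Peaks rested on few reads. COLO320DM had 1.47 M IP reads against 1.38 M in HCT116, 2.13 M in HT29, 2.99 M in COLO205 and 5.02 M in HCT15. Its input held 2.28 M reads, against 1.61 M to 5.41 M in the others. The HCT15 list stood apart, with 852 peaks on chromosomes 1 to 22 against 8304 to 9284 in the other lists, so sharing was decided almost wholly by HCT116, HT29 and COLO205. A COLO320DM peak had a median of 12 IP reads over its summit, and the range was 2 to 143.

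Of the COLO320DM peaks, 3908 were private, which is 47.1% (46.0% to 48.1%). Another 1704 (20.5%) were in 1 other list, 1175 (14.1%) in 2 and 1517 (18.3%, 17.4% to 19.1%) in 3 or more. The same split made 38.5% of HCT116 peaks private, 36.5% of HT29 peaks, 33.8% of COLO205 peaks and 5.87% of HCT15 peaks. COLO320DM thus had the highest private share of the 5 lists. HCT116 was the main partner. It alone held 1070 of the 1704 peaks in 1 other list (62.8%), against 423 for COLO205, 210 for HT29 and 1 for HCT15. Of the peaks in 3 or more lists, 1477 (97.4%) were in HCT116, HT29 and COLO205, and 20 were in all 4. Without the HCT116 list the private share was 59.9%.

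Private peaks were narrower and weaker than widely shared ones. The median width was 88 nt (86 to 90) in private peaks, 120 nt in those with 1 other list, 139 nt with 2 and 186 nt (180 to 192) with 3 or more. Recovered IP reads had medians of 7, 14, 17 and 24 in the same order, and the authors' fold enrichment had medians of 4.77, 5.26, 5.73 and 6.51. The shortest possible peaks, 73 to 75 nt long, made up 37.5% of private peaks and 2.77% of those in 3 or more lists. Fewer than 5 reads lay behind 37.2% of private peaks and 1.78% of those in 3 or more lists. At the other end, 20 or more reads lay behind 437 private peaks (11.2%) and 63.3% of the widely shared ones. Width also helps 2 peaks to meet, so it is not independent of the classes.

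**Figure D1:**
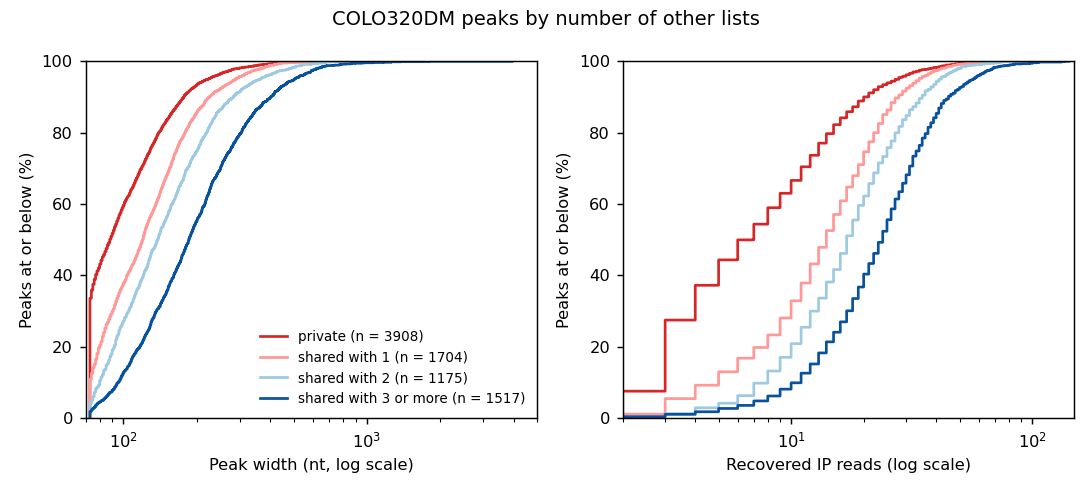
Cumulative share of COLO320DM peaks (percent) against peak width in nt (left, log scale) and recovered IP reads (right, log scale), 1 line per class of sharing. The private line lies to the left in both panels, with median widths of 88 nt against 186 nt and median reads of 7 against 24 for peaks in 3 or more other lists.

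The private share fell with read support. It was 87.0% of peaks with 2 to 4 reads, 63.3% with 5 to 9, 37.7% with 10 to 19, 19.01% with 20 to 39 and 16.1% (12.8% to 19.9%) with 40 or more. At each step up to 19 reads COLO320DM was above the other 3 long lists. With 10 to 19 reads the private share was 37.7% (35.9% to 39.6%) in COLO320DM, 33.6% in HCT116, 22.4% in COLO205 and 13.6% in HT29. Among peaks of 20 or more reads the order was close: 18.5% of COLO320DM peaks were private (437 of 2366, 16.9% to 20.1%), 16.7% in HCT116 (15.2% to 18.4%), 16.03% in COLO205 (14.3% to 17.8%) and 2.64% in HT29. The intervals of the first 3 overlapped, and HT29 lay below them. At 40 or more reads HCT116 was lower too, at 8.09% (5.73% to 11.02%) against 16.1% in COLO320DM, while COLO205 was at 17.4%. Its IP was deeper than that of COLO320DM, and reads were not scaled for depth. The part of depth in these shares was not tested.

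**Figure D2:**
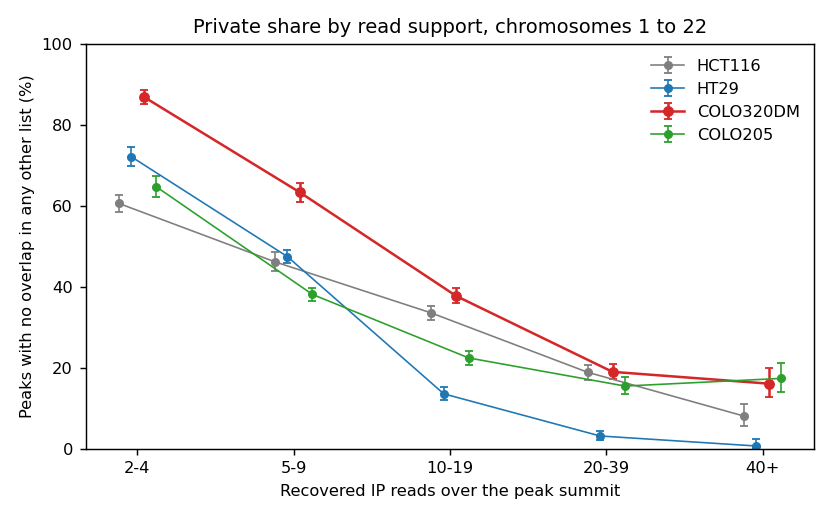
Share of peaks with no overlap in any other list (percent, with exact 95% intervals as bars) by recovered IP reads over the summit, for the 4 long lists. COLO320DM runs from 87.0% at 2 to 4 reads to 16.1% at 40 or more and is the highest line up to 19 reads.

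Width and private status also went together at like strength. Among COLO320DM peaks of 10 to 19 reads, the private share was 58.5% at 73 to 75 nt and 17.4% at 300 nt or more. In that group private peaks had a median width of 104 nt and shared peaks 133 nt.

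The local background that the caller used was read as input fragments. It was at least 1 fragment under 41.8% of private peaks (40.2% to 43.4%), 73.1% of peaks in 1 other list, 82.7% in 2 and 89.0% in 3 or more. At like strength the order depended on the reads. At 5 to 9 reads, 59.4% of peaks over at least 1 input fragment were private (54.9% to 63.9%) and 65.0% of those over less (62.1% to 67.8%). At 10 to 19 reads the shares were 38.5% (36.6% to 40.5%) and 31.5% (26.3% to 37.2%), the other way round, and in both cases the intervals overlapped. With 10 or more reads required, 93.5% of private and 94.4% of widely shared peaks lay over at least 1 fragment. All 1672 peaks of 2 to 4 reads, of which 87.0% were private, lay over less than 1 fragment. The calling fixed this in advance. The lowest −log10 p in the list was 4.56, which so few reads cannot reach over 1 fragment. The share over at least 1 fragment is therefore not independent of the read counts.

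By chromosome, the private share ran from 37.1% on chromosome 20 (30.5% to 44.2%) and 38.3% on chromosome 19 to 55.2% on chromosome 2 and 56.3% on chromosome 13 (49.5% to 62.9%). The high share on chromosome 13 was not particular to COLO320DM. In COLO205 58.0% of 362 peaks there were private, against 32.3% in HCT116 and 32.6% in HT29. Among peaks of 10 or more reads, 28.7% of all were private, and the range was from 19.7% on chromosome 10 to 39.4% on chromosome 2 (34.4% to 44.6%), with 37.7% on both chromosome 9 and chromosome 22. Chromosome 2 was high in both. Chromosome 8, which carries MYC, was at 48.1%, near the 47.1% of the whole list. At 8q24, the region of MYC, the windows chr8:127000001-128000000 and chr8:128000001-129000000 were higher, with 18 of 20 and 16 of 22 peaks private. The private peaks of each had a median of 13.5 reads. Both were also among the windows with most private peaks. Other lists had peaks there too, in the same order 14 and 28 in HT29, 2 and 11 in HCT116 and 1 and 8 in COLO205. Within 5 Mb of a chromosome end lay 14.8% of private peaks and 15.8% of those in 3 or more lists, with overlapping intervals. Chromosome lengths were not used. The far end was taken as the end of the last peak in any list, and the near end as the start of the coordinates.

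**Figure D3:**
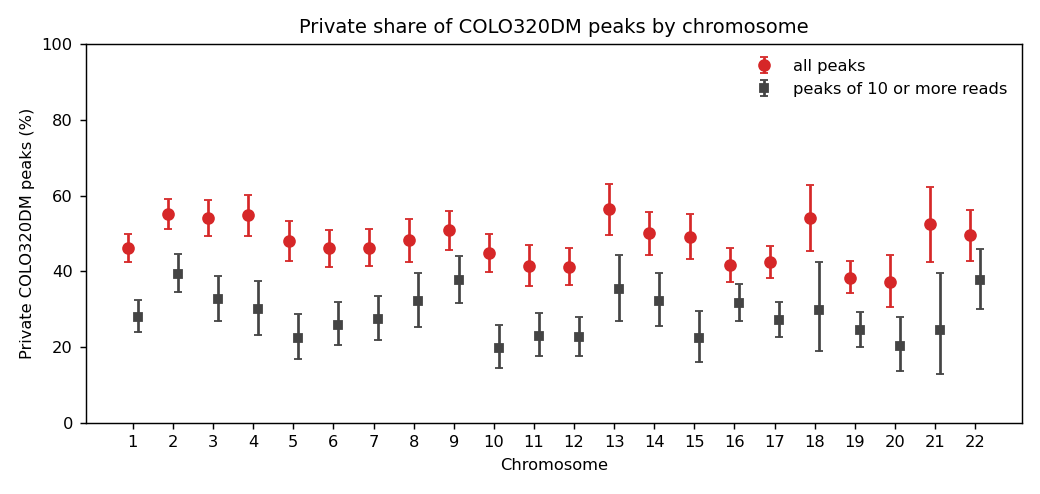
Private share of COLO320DM peaks (percent, with exact 95% intervals) on each of chromosomes 1 to 22, for all peaks and for those of 10 or more reads. Chromosomes 13 and 2 are highest for all peaks at 56.3% and 55.2%, and chromosome 2 is highest at 10 or more reads, at 39.4%.

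The nearest peak of another list lay a median of 31.8 kb from a private peak. It was within 1000 nt for 14.7% of them (13.6% to 15.8%) and within 100000 nt for 73.3%. For private peaks of 20 or more reads these shares were 19.2% and 78.7%. Some private peaks were therefore neighbours of a peak elsewhere, but most were not.

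Some windows held many private peaks, and whether private peaks cluster more than shared ones was not tested. The 1-Mb window with most of them was chr14:19000001-20000000, with 27 private peaks of 32, followed by chr19:58000001-59000000 with 22 of 30. The windows chr16:2000001-3000000 (19 of 36) and chr10:38000001-39000000 (19 of 31) came next, then chr8:127000001-128000000 with 18 of 20. They differed in strength. On chromosome 10 the private peaks had a median of 3 reads and the other lists had 27 peaks in COLO205, 13 in HCT116, 13 in HT29 and 2 in HCT15. On chromosome 14 the median was 15 reads, and the window held 3 peaks in HT29, 4 in COLO205 and none in HCT116 or HCT15. In all, 26 windows had 10 or more private peaks and together held 367. Without those windows, a choice made after the values were seen, the private share among peaks of 20 or more reads was 15.7%.

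Runs of at least 3 private peaks, with gaps of at most 50000 nt, were sought after the data were seen. A run ended at any shared COLO320DM peak and at any peak of another list. The lack of such peaks inside a run was thus a condition of the search. There were 170 runs, with 676 peaks or 17.3% of all private ones. Both of the longest had 15 peaks. The first, chr9:129214176-129252243, lay inside MVB12B, which encodes a subunit of the ESCRT-I sorting complex. Its peaks had 9 to 41 reads, a median of 28, over a median of 10.3 input fragments. HCT116 had 1 and COLO205 had 2 peaks elsewhere in the gene, and HT29 and HCT15 none. The second, chr17:39580692-39659967, ran through the type I keratin genes, with 3 peaks in KRT32 and 1 in KRT13. The third, chr6:313846-378807, had 13 peaks of 13 to 73 reads, of which 8 lay in DUSP22, a phosphatase gene with no peak in the other lists.

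Gene names here come from hg19 spans known as background, whose lengths were compared with RefSeq. A span that passed only because 1 end agreed between builds is marked "by 1 end". A peak was given to every gene whose span it lay in, so intronic and exonic peaks, and the strand, were not told apart.

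Of the 8 private peaks with the highest −log10 p, 7 are described here, with 27 to 117 reads. The strongest was chr1:119862815-119863017, with 53 reads over 3 input fragments, a fold of 18.4 and a −log10 p of 56.6, in none of the named spans. The private peak with most reads was chr16:33405755-33405949, with 117 reads over 37.0 fragments and a fold of 4.73. Next came chr3:73432533-73432803 in PDZRN3, a ubiquitin ligase gene, with 37 reads and a fold of 16.04, and chr7:139604651-139605056 in TBXAS1, the thromboxane A synthase gene, with 34 reads and a fold of 14.8. The others were chr9:98537258-98537431 with 27 reads, chr14:20068368-20069234 with 37, and chr8:128400168-128400333 in the long non-coding gene CASC8 with 44. By fold at 10 or more reads, chr17:63396882-63397261 (fold 16.5, 21 reads) and chr17:18314481-18315252 (fold 15.8, 25 reads) joined the first 5.

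Several of these genes held a series of private peaks and no peak of any other list. TBXAS1 had 8, with 6 to 39 reads. PDZRN3 had 4, of which the strongest 3 lay within chr3:73432533-73433849 and had 37, 18 and 14 reads. NRP2, a receptor for semaphorins and VEGF, had 5, with up to 52 reads. TENM2 (by 1 end), a teneurin of neuronal contacts, had 7, with up to 48 reads. ZEB2, a repressor of epithelial genes, had 3, with 42, 32 and 5 reads. BACH2, a transcription factor of lymphocytes, had 4, and KCTD12, an auxiliary subunit of GABA-B receptors, had 3. FREM2, an extracellular matrix gene, and LRRN1, which encodes a leucine-rich repeat membrane protein, had 6 each. In all, 35 of 39 genes looked up for their private peaks held 141 peaks, 130 of them private, and in 30 genes every peak was private. These genes were looked up because of their peaks, so their private status is a description of the choice and supports nothing further.

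Homeobox genes, which encode transcription factors that set position along the body, were among the places of private peaks. The HOXD cluster held 14 COLO320DM peaks, of which 13 were private, while HCT116 and COLO205 had 1 peak each and HT29 and HCT15 none. Of these, 9 formed a run at chr2:176957494-176988886 that covers HOXD13 (by 1 end), HOXD11 (by 1 end), HOXD10 and HOXD9. The strongest, chr2:176970990-176971211, had 54 reads over 10.0 input fragments. The HOXC cluster held 13 peaks, 8 of them private, against 3 in HCT116, 3 in HT29 and none in HCT15 or COLO205. HOXA and HOXB showed the other picture. HOXA had 3 peaks, none private, against 5, 5 and 4 in HCT116, HT29 and COLO205. HOXB had 3, none private, against 13, 7 and 2. Outside the clusters, IRX5 had 4 private peaks of 34 to 48 reads and EMX2 had 1 of 50 reads, and neither gene had a peak in another list. IRX3 had 2 peaks, neither private, and HCT116 also had 2, while LMX1B had none here and 1 in HT29. Over the 4 clusters 21 of 33 peaks (63.6%) were private, against 47.1% of the whole list. Their median was 14 reads, and 37.7% of all peaks of 10 to 19 reads were private. The clusters were chosen after the peaks were seen.

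In some genes the lists had peaks at different places. COL5A1, a fibrillar collagen gene, had 9 COLO320DM peaks of 6 to 16 reads, all private, while HCT116 had 8, HT29 17, HCT15 2 and COLO205 8. BCL11A, a transcription factor gene, had 4 private peaks, and HCT116, HT29, HCT15 and COLO205 had 1, 3, 1 and 2.

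Copies of the POTE family, whose genes are nearly identical and lie near several centromeres, also held private peaks. POTEG, POTEH and POTEI had 1 each, POTEM 3, POTEF 1 and POTEE (by 1 end) 1, and no POTE gene examined had a peak in another list. POTEA, POTEC and POTEJ had no peak here either. Counts were 6 to 26 reads. Of all COLO320DM peaks, 63.3% were private at 5 to 9 reads, 37.7% at 10 to 19 and 19.01% at 20 to 39. The family was chosen after its peaks were seen, so their private status supports nothing further. Reads of such copies cannot be placed with certainty, so which copy gave them is not known.

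**Figure D4:**
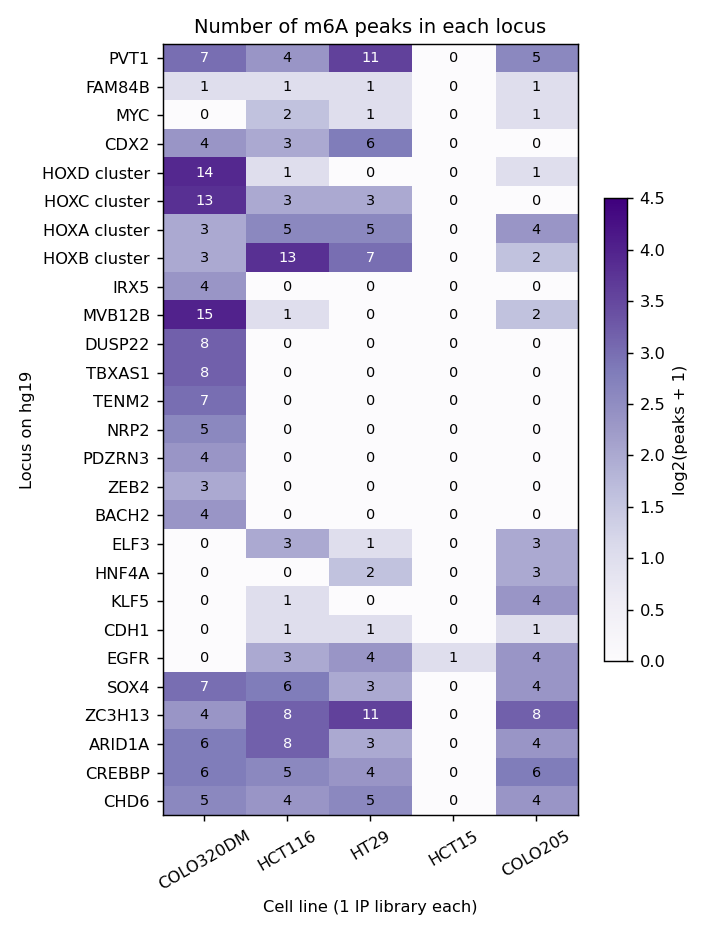
Number of m6A peaks in each of 27 loci (rows) in the 5 lists (columns), with the colour on a log2(peaks + 1) scale. HOXD, MVB12B, DUSP22 and TBXAS1 hold 14, 15, 8 and 8 COLO320DM peaks and at most 2 in any other list, while ELF3 and EGFR hold none in COLO320DM. The MYC, CDX2 and TENM2 spans were kept by 1 end.

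At 8q24, the region of MYC, local input was high in COLO320DM at PVT1 and FAM84B. PVT1, the long non-coding gene beside MYC, held 7 peaks with up to 143 reads, of which 1 was private, against 4 in HCT116, 11 in HT29 and 5 in COLO205. The peak chr8:128909700-128909989 had 143 reads over 101 input fragments, or 44.3 fragments per M input reads (M for mega). At the overlapping peaks the background was 1.61 per M in HT29, 0.892 in HCT116 and 0.370 in COLO205. The fold was thus only 2.17 in COLO320DM, against 9.26 in HT29, 13.4 in HCT116 and 16.2 in COLO205. At chr8:127568724-127568873 in FAM84B the background was 39.1 per M, against 7.74 in HT29, 1.85 in COLO205 and 1.78 in HCT116. MYC itself (by 1 end) held no COLO320DM peak, although HCT116 had 2 and HT29 and COLO205 1 each. No background is known at MYC, since there was no peak to recover it from. TRIB1, a pseudokinase gene farther up, had 2 peaks, both in 3 other lists, over only 1 and 3 input fragments. CASC8 had 5 private peaks while HT29 had 10 elsewhere in the gene, and 1 of the 5 also lay in POU5F1B (by 1 end).

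CDX2 (by 1 end), the intestinal master transcription factor, had a high local input too. It held 4 peaks, all shared with HT29 and 3 of them with HCT116. At chr13:28543235-28543386 the background was 31.2 fragments per M in COLO320DM and 0.0484 in HT29, where it was 0.15 of a fragment, so the ratio is imprecise. At the other 3 peaks it was 20.6 to 24.6 per M, 39.3 to 47.4 times the highest of the other lists. That highest value was only 0.975 to 1.275 fragments, so these ratios are imprecise too. Over 3567 shared peaks with at least 1 COLO320DM input fragment, the median ratio to the highest of HCT116, HT29 and COLO205 was 1.26 and the 99th percentile 31.9. That limit favours a high ratio. Over all 4395 shared peaks compared, with no limit, the median was 1.12 and the 99th percentile 30.3. The 6 shared PVT1 peaks had ratios of 25.6 to 35.4. The highest other list had 0.4125 to 5 fragments there, so these are imprecise as well. SOX4 was at 0.527 to 0.805 and MALAT1 at 0.507 and 1.32. Input fragments follow the amount of the RNA and cannot be told apart here from extra gene copies, which were not measured.

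**Figure D5:**
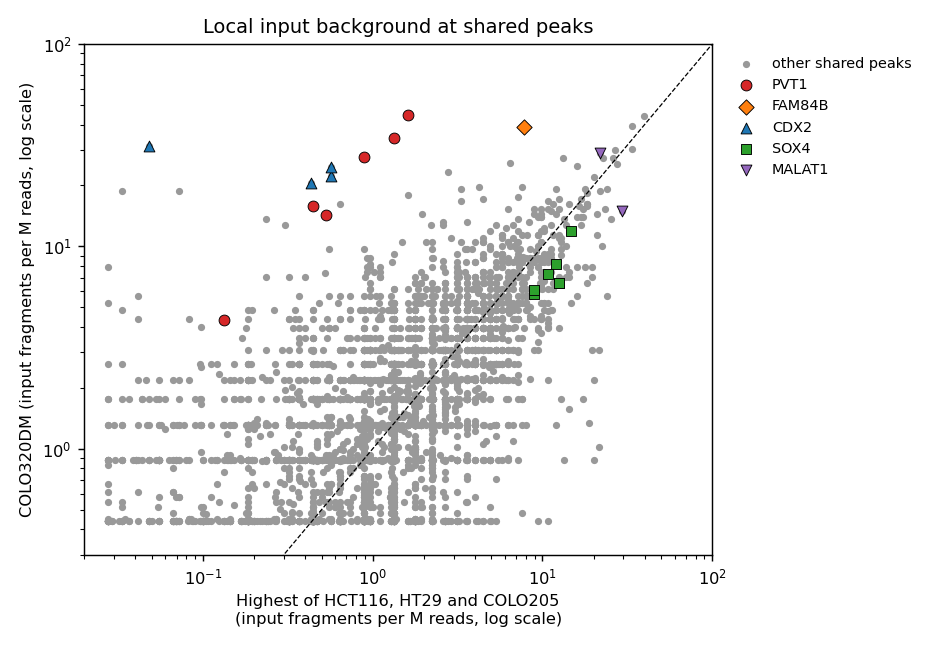
Local input background (fragments per M input reads, log scales) at shared peaks with at least 1 COLO320DM input fragment, COLO320DM against the highest of HCT116, HT29 and COLO205, with equality as a dashed line. PVT1 and CDX2 peaks lie far above the line, with ratios of at least 25.6, while SOX4 peaks lie below it. The PVT1 and CDX2 ratios are imprecise, since the highest other list had only 0.15 to 5 fragments.

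The widely shared peaks with the highest −log10 p lay in CHD6, TRAF3IP1, FOXK2 and DIDO1 and at chr3:187552500-187552746. The CHD6 peak, in a chromatin remodeller gene, was chr20:40161728-40162013, with 97 reads over 9 input fragments. Its fold was 14.4 in COLO320DM, 11.5 in HCT116, 14.8 in HT29 and 17.9 in COLO205, and its reads were 97, 81, 95 and 76. Per M IP reads these were 65.8, 58.7, 44.7 and 25.4, and HCT15 had no peak there. TRAF3IP1, a gene of ciliary transport, had a fold of 24.4 in COLO320DM at chr2:239237588-239237960, against 11.9, 8.58 and 9.97 in HCT116, HT29 and COLO205. Its 55 reads equalled those of HCT116, over 2 input fragments against 6. The DIDO1 peak chr20:61510550-61511204 was in all 4 other lists, with folds from 7.98 in HCT15 to 16.1 in COLO205 and 11.4 here. The FOXK2 peak chr17:80544065-80544412 had a fold of 16.3, against 10.5, 8.63 and 5.54 in HCT116, COLO205 and HCT15. The peak on chromosome 3 had a fold of 32.3 here and 11.3 to 28.3 in the others. The COLO320DM fold was also set against that of each long list over the COLO320DM peaks shared with it. The median log2 difference was -0.07 to HCT116 (3508 peaks), 0.07 to HT29 (2254 peaks) and -0.27 to COLO205 (2817 peaks). Each fold is against the local background of its own library, so folds of different lists are set side by side and are not on 1 scale.

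The lists of genes showed where private and shared peaks lay. Of the long genes and chromatin regulators, 14 of 16 held a COLO320DM peak, and of their 57 peaks 13 were private (22.8%) and 22 in 3 or more lists. Their median was 21 reads, and 19.01% of all peaks of 20 to 39 reads were private, a share near theirs. CREBBP, KMT2A and CHD7, with 6, 5 and 5 peaks, had no private one. BPTF had 8 with 1 private, EP300 6 with 1, CHD6 5 with 1, NIPBL 5 with 1 and SETD2 4 with 1. ASXL1 had 5 with 2 private and TET2 3 with 2, while BRCA2 had 2 with 1. DICER1, DYNC1H1 and PRKDC had 1 each, all private, and KMT2D (by 1 end) had 9 with 1 private. AHNAK had none here, against 5, 1 and 3 in HCT116, HT29 and COLO205. ATM had none.

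Genes of the m6A machinery carried 18 peaks in 9 of 14 genes, of which 3 were private (16.7%) and 7 in 3 or more lists. Their median was 28.5 reads, so this share too was near the 19.01% of all peaks at 20 to 39 reads. ZC3H13 had 4, all in 3 lists and with up to 100 reads, and RBM15 had 5 with 1 private. WTAP had 2, and YTHDF1, YTHDF2, YTHDF3, YTHDC1 and METTL14 (by 1 end) had 1 each, none of them private. The private peaks in the demethylase gene FTO and in IGF2BP3 had 3 and 2 reads, and IGF2BP3 had a second, shared one. METTL3, ALKBH5, IGF2BP1, IGF2BP2 and VIRMA had none here. The last 2 had peaks in HCT116, HT29 and COLO205.

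Short-lived transcripts had 16 peaks in 5 of 10 genes, with 1 private (6.25%). Their median was 39 reads, where 19.01% (20 to 39 reads) to 16.1% (40 or more) of all peaks were private. SOX4, a transcription factor gene, had 7, all shared, and MCL1, an anti-apoptotic gene, had 4 with 1 private. JUN and IER2 had 2 each and SOX9 1. FOS, EGR1, KLF4, MYB and ATF3 had none, and EGR1 had 3, 2 and 1 in HCT116, HT29 and COLO205. Among colon cancer genes 4 of 15 held a peak: ARID1A 6, none private, FBXW7 and AXIN2 3 each with 1 private, and PIK3CA 1, shared. Of these 13 peaks 2 were private (15.4%), and their median was 34 reads. That share was near the 19.01% of all peaks at 20 to 39 reads. In HCT116, HT29, HCT15 and COLO205, 5, 6, 1 and 7 of the 15 genes held a peak. EGFR had none here, against 3, 4, 1 and 4 in HCT116, HT29, HCT15 and COLO205. APC, CTNNB1, NRAS, BRAF, SMAD4, ERBB2 and TCF7L2 also had none here. Of long non-coding RNAs, MALAT1 had 2 peaks and NEAT1 and NORAD 1 each, all shared, and KCNQ1OT1, MEG3 and H19 (by 1 end) none. Of MYC target genes, NCL (by 1 end) had 2, both shared, and NPM1, ODC1, LDHA, CAD, CCND2, E2F1 and TERT had none here. TERT had 3, 5, 2 and 2 in HCT116, HT29, HCT15 and COLO205.

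Few marker genes of neuroendocrine cells held a peak. Of the neuroendocrine genes named here, only CHGA and CHGB, which encode granins of secretory vesicles, held a COLO320DM peak. Each was private and had 3 reads, over 0.0730 and 0.0616 input fragments. The value at CHGB is the floor of the background, set by the depth of the whole library, and not a local count. Of all COLO320DM peaks of 2 to 4 reads, 87.0% were private. INSM1, ENO2, NCAM1, SCG2, SCG3, DDC, UCHL1, SOX2, SOX11 and INSM2 had none, nor had NEUROD1, FOXA2, NKX2-2, HES6 and NEUROG3 (each by 1 end). The other lists held as few: HCT116 had 1 peak each in SCG2 and SOX2, HT29 and COLO205 1 each in FOXA2, and HCT15 none. Of the intestinal genes, ASCL2 (by 1 end) had 1 shared peak, and CDX2 the 4 given above. CDH1 and ELF3 had no peak here and at least 1 in each of HCT116, HT29 and COLO205, with 3, 1 and 3 in ELF3, the gene of an epithelial transcription factor. EPCAM, HNF4A, GATA6 and KLF5 had none here and some in 1 or more of those lists. CDX1, KRT18, KRT20, LGR5 and CEACAM5, and KRT8 and VIL1 (each by 1 end), had none here or in the other lists. The lack of a peak does not show that a gene is silent: ACTB, GAPDH, EEF1A1, TUBA1B and ACTG1, which every cell uses, had none in any list.

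The private peaks with the highest background were the reverse of the strongest. At chr6:372723-372795, chr6:373210-373311 and chr6:380896-381083, beyond the end of DUSP22, 64 to 73 reads lay over 57.0 to 60 input fragments, with folds of 1.71 to 1.86. The last lay 1023 nt from a peak of another list. In APCDD1, a Wnt inhibitor gene, chr18:10454704-10454800 had 80 reads over 44.0 fragments, and chr17:41400639-41400757 had 70 over 41.0, with folds of 2.75 and 2.58. These were places of abundant input and a small enrichment.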

How the data were processed

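Antibody-enriched and input RNA of 5 colon cancer cell lines was sequenced. Tools listed in the submitters' processing notes are BWA, MACS2, cutadapt and FastQC, with hg19 as the genome build. BWA does not split reads at introns, so reads across exon junctions may be missing from peaks, which was not tested. Versions, order and parameters are not given in the sources used here. Peaks were deposited per IP library, with nothing pooled. For each peak the authors deposited a fold enrichment (a ratio to the local background), a −log10 p, a −log10 q and a score, which is the −log10 q times 10. These are the authors' values and served to describe, rank and filter peaks of 1 list. Folds of shared peaks are also printed side by side, though each is relative to its own library. The last deposited column used is the summit position. Coordinates count from 1 on hg19.

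IP reads and the local background were computed from the fold, with a pseudocount of 1, and the −log10 p under the Poisson model of MACS2, within 0.001. All 8832 COLO320DM peaks met a whole number of reads, 4 of them more than 1 number. HCT15 met it only with each IP read weighted 0.322. On 936 simulated COLO320DM peaks 100% of reads were recovered, including 32 under 10 reads. Each line's own input was assumed to be the caller's control, which no source used here states. Depths assume a genome of 2.7 Gb and a fragment of 73 nt in COLO320DM. Overlaps matched bedtools 2.31.1 on simulated intervals.

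Shares have exact Clopper-Pearson intervals and medians order-statistic intervals. The named peaks were the 8 private with the highest −log10 p, the 5 private with the highest fold at 10 or more reads, the 5 private with the highest background, the 5 in 3 or more lists with the highest −log10 p, and the 5 windows with most private peaks. Of 119 listed gene spans 101 agreed in length with RefSeq (GRCh38.p14) within 10%. A rule added after the data were seen, that 1 end shift between builds as that of a neighbour within 1000 nt, kept 15 more. A further 91 spans, among them HOX, POTE and private-peak genes, were chosen after their peaks were seen, and 69 passed by length and 18 by 1 end. Some of the genes and peaks these rules name are not reported here. The peaks and lists were chosen with earlier results of these data known. Alternatives were stricter −log10 q, fold and read limits, other overlap rules, chromosomes X and Y, and each other list left out. No genome was used, so sequences and motifs were not analysed here. Work was done in Python 3.11.15 with scipy 1.17.1, pandas 2.3.3 and numpy 2.4.6, and plots with matplotlib 3.10.9.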

Additional observations from a re-analysis of the deposited data

Results flagged for a closer look

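The comparisons cover chromosomes 1 to 22, and COLO320DM also had peaks elsewhere. Chromosomes X and Y held 334 peaks, of which 164 were private, with a median of 10 reads. Alternative haplotypes held 113, of which 71 were private, and unplaced or unlocalised contigs 76, of which 36 were private. On the mitochondrial genome there were 5, none private, with a median of 82 reads and a median fold of 1.82. Haplotype and contig sequences repeat parts of the chromosomes, so reads there cannot be placed with certainty.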

How the results depend on the processing

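No paired analysis was possible because each line has 1 IP library and no test was made. The order of private against widely shared peaks held for width in 12 of 12 alternatives and for reads in 11. The exception was the list set without HCT116, with medians of 8 reads in private and 7 in widely shared peaks, and the cause was not tested. For input the private share was the lower in 12, but by little at 10 or more reads (93.5% against 94.4%) and without HCT116 (49.4% against 51.5%). With HCT116, HT29 or COLO205 left out, only peaks that HCT15 also holds can be in 3 lists, so few are.

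The private share was 41.9% at a −log10 q of at least 5 in all lists, 32.5% with that limit on COLO320DM only, 44.3% at a fold of at least 4, 28.7% at 10 or more reads, 56.5% at a reciprocal overlap of 50%, 50.2% for summits within 100 nt and 40.1% for peaks within 1000 nt. Added after the data were seen, it was 48.3% with equally many strongest peaks (8304) in the long lists and 18.5% at 20 or more reads, the latter 15.7% without the densest windows. With each other list left out it ran from 47.1% to 59.9%. The share in 3 or more lists was, at those settings, 19.4%, 28.1%, unchanged within its interval for fold, 27.6%, 11.3%, 14.9% and 24.7%, and with a list left out 0.265% to 18.03%.

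The median width of private peaks was 111, 105, 100, 112, 93 and 91 nt at the first 6 settings and 88 to 95 nt with a list left out. Their median reads were 13, 12, 9, 15 and 8 at the first 5 and 7 to 8 with a list left out. Their input-covered share was 58.6%, 54.8%, 53.5%, 93.5%, 46.7%, 44.4% and 38.5% at the 7 settings, 30.8% when a single limit of input per M reads, 1 fragment of the shallowest input, was used, and 41.8% to 49.4% with a list left out. On chromosome 13 the private share was 35.2% at 10 or more reads, and on chromosome 20 it was 20.1% there and 27.2% within 1000 nt. Apart from the read limits, which remove weak peaks by construction, the cause was not tested. Peaks of 2 to 4 reads limit what can be read from any single private peak.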
